A study of Mus musculus with 12 samples.

Results

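All 9 liver RNA libraries of mice fed a high-fat diet were set against the 3 libraries of mice fed a normal diet, which together make up the 12 libraries of the study. The high-fat libraries came in 3 groups of 3: the diet without exercise (HFD), the diet with exercise called AE (HFD+AE) and the diet with exercise called RE (HFD+RE). The fourth group, also of 3 libraries, was the normal-diet control (NC). The mice were C57BL/6 males, an inbred laboratory strain, that started at 6 weeks of age and had 1 week to adapt. The high-fat groups then received the purified diet D12492, and HFD+AE and HFD+RE began to train after 8 weeks of it, for at least 12 weeks. AE and RE are given only as abbreviations. No normal-diet group trained, so within HFD+AE and HFD+RE diet and exercise cannot be told apart; a difference from NC found in each high-fat group is one that was measured at every exercise state of the study. Whether the libraries of a group are separate animals is not given in the sources used here, and the p-values measure the spread between libraries, which may be technical. Libraries carry the numbers of the labels, 1, 2 and 3 in HFD and HFD+AE, 3, 4 and 5 in HFD+RE, and 2, 4 and 5 in NC.

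Libraries held 44373214 to 60308552 counts in HFD, 55922691 to 65434486 counts in HFD+AE, 51178332 to 61089139 counts in HFD+RE and 47823607 to 77665729 counts in NC, and 18305 of 55291 genes had enough counts to be tested. In every library the top transcript was Alb, the albumin gene, and none of the 9 tested hepatocyte markers was at 0, so the tissue label fits the defining markers of hepatocytes. The summed level of those 9 markers was nevertheless lower in HFD, at 63809 to 91595 CPM (counts scaled to a common library total), than in HFD+AE (115810.0 to 125120.0), HFD+RE (96031 to 124560.0) and NC (122720.0 to 136640.0). Mitochondrial rRNA took 1.76% to 3.26% of the counts in HFD, 0.771% to 0.867% in HFD+AE, 0.685% to 1.71% in HFD+RE and 0.708% to 0.924% in NC. On the first principal component, which held 40.6% of the variance, HFD+AE 1 and 2 and HFD+RE 3 lay on the side of NC, and HFD+AE 3 and HFD+RE 4 and 5 on the side of HFD. The exercise groups were therefore spread out, and counts of genes are given below with and without HFD+AE 3 and HFD+RE 3. As they lay apart from the rest of their groups in these same data, leaving them out narrows the spread within groups by construction. The part of these library properties in the gene results was not tested. In whole liver, fewer cells of a type and less RNA per cell cannot be told apart.

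As background, the liver takes up dietary fat, stores it as triglyceride in lipid droplets, oxidises it, or exports it, and it makes bile acids that help to absorb it. Hepatocytes secrete much of the protein of blood plasma, and that protein is folded in the endoplasmic reticulum by chaperones whose genes are switched on together when unfolded protein builds up. Many hepatocyte genes also differ between male and female mice under the control of growth hormone, and many of the cytochrome P450 enzymes, which oxidise steroids, drugs and fatty acids, belong to them.

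Across the 3 high-fat groups combined, 1690 genes differed from NC at an adjusted p below 0.05, which is 9.23% of the genes tested; 897 rose (4.9%) and 793 fell (4.33%). This is the contrast of the mean of the 3 high-fat group means with the NC mean in a single edgeR quasi-likelihood fit of all 12 libraries, and "rose", "fell" and "called" refer to it unless a group is named. Each group was also compared with NC alone, against the same NC libraries. HFD then differed in 2851 genes (15.6%; 8.38% rose and 7.19% fell), HFD+AE in 253 (1.38%; 0.901% rose and 0.481% fell) and HFD+RE in 724 (3.96%; 2.67% rose and 1.28% fell). A set of 154 genes (0.841%) was called in the combined contrast and in each group with the same sign; 101 of them rose (0.552%) and 53 fell (0.29%). In 152 of the 154, no high-fat library overlapped with an NC library. The 154 had to pass against the same NC libraries in each group, so this follows largely from their selection and tests nothing. Of the 1690 genes called in the combined contrast, 1107 were without overlap. Over all genes tested, the 9 and the 3 libraries were that cleanly apart in 1756 (9.59%), with the high-fat values all above NC in 5.41% and all below NC in 4.18%. The median log2 change of the 101 genes that rose in each group was 1.56 in HFD, 1.57 in HFD+AE and 1.66 in HFD+RE, and that of the 53 that fell was -2.02 in HFD, -1.80 in HFD+AE and -1.76 in HFD+RE. Since the genes had to pass in each group, these medians describe the set and test nothing. Over all genes tested the median was 0.0011. Of the 154 genes, 132 are protein coding in the reference annotation, as are 13786 of all 18305 genes tested. Without HFD+AE 3 and HFD+RE 3, 201 genes were called in each group, 124 of them among the 154; without NC 4 alone, 36 were, 33 of them among the 154.

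Among the genes that rose in every high-fat group, a cytochrome P450 stood first. The 12 genes with the largest change in each direction were chosen for no overlap between high-fat and NC libraries. Its absence in them therefore tests nothing. Cyp2b9, a P450 of the phenobarbital-inducible Cyp2b family that is normally female-biased in mouse liver, had 281, 259.9 and 232 CPM in HFD, 99.2, 211 and 312 in HFD+AE and 8.77, 201 and 8.27 in HFD+RE, against 0.409, 1.15 and 1.45 in NC. Every high-fat library was above every NC library, with a wide spread in HFD+RE, where library 4 was far above libraries 3 and 5. The log2 change was 7.28 ± 1.18 (SE; adjusted p = 0.0039). Cyp2a22 averaged 36.6 ± 7.51 CPM in HFD, 35.6 ± 8.84 in HFD+AE and 11.5 ± 6.25 in HFD+RE, against 0.975 ± 0.757 in NC (SD, n = 3 each; log2 change 4.63 ± 0.56 SE, adjusted p = 0.000747), and Cyp2a5, a neighbouring P450 on chromosome 7 that oxidises coumarin and bilirubin, averaged 1010.2 ± 221 CPM in HFD, 1207 ± 221 in HFD+AE and 1014 ± 292 in HFD+RE, against 437 ± 121 in NC. Cyp2a5 rose by 1.30 on the log2 scale (adjusted p = 0.00809). Genes of the Cyp2a and Cyp2b subfamilies have near-identical copies, so their reads can be split between copies and single values are uncertain.

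Osbpl3 (chr6:50293330-50456201, mm10), a member of the oxysterol-binding protein family that moves lipids between membranes, had 47.5, 39.7 and 28.8 CPM in HFD, 20.0, 16.6 and 22.3 in HFD+AE and 31.1, 18.0 and 15.4 in HFD+RE, against 1.04, 2.02 and 1.85 in NC. No high-fat library came near the NC range. The HFD mean was above those of the trained groups, but the test among the high-fat groups did not pass (adjusted p = 0.163). The log2 change was 3.95 ± 0.31 (adjusted p = 8.04e-05), with 4.56 in HFD, 3.58 in HFD+AE and 3.71 in HFD+RE. Its relative Osbpl5 averaged 10.3 CPM in HFD, 10.1 in HFD+AE and 7.88 in HFD+RE, against 2.28 in NC (log2 change 2.03). Stap1, which encodes a signalling adaptor first found in haematopoietic cells, averaged 12.6 ± 2.69 CPM in HFD, 5.79 ± 2.03 in HFD+AE and 9.98 ± 2.97 in HFD+RE, against 0.955 ± 0.297 in NC. Sema5b, a guidance semaphorin, averaged 21.4 ± 1.30 CPM in HFD, 12.8 ± 4.84 in HFD+AE and 9.93 ± 5.79 in HFD+RE, against 1.51 ± 0.287 in NC. Tlr12, a Toll-like receptor that in mice recognises profilin of parasites, had 22.6 ± 2.99 CPM in HFD, 19.4 ± 10.2 in HFD+AE and 16.3 ± 5.85 in HFD+RE, against 2.44 ± 0.171 in NC, and the 9 high-fat values (lowest 10.4, median 19.3, highest 31.0 CPM) were all above the 2.26 to 2.60 CPM of NC. Gpc1, a heparan sulfate proteoglycan of the cell surface, averaged 56.4 ± 6.58 CPM in HFD, 51.3 ± 24.3 in HFD+AE and 52.3 ± 18.6 in HFD+RE, against 9.77 ± 4.42 in NC. Log2 changes of these genes were 3.22 for Stap1, 3.20 for Sema5b, 2.98 for Tlr12 and 2.45 for Gpc1, with adjusted p between 0.000241 and 0.00245.

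Organic anion transporters and less well known genes completed the upper end. Slc22a27 averaged 10.8 CPM in HFD, 9.29 in HFD+AE and 4.08 in HFD+RE, against 0.822 in NC (log2 change 3.14). Slc22a29, in the same cluster of transporter genes on chromosome 19, averaged 4.93 CPM in HFD, 5.91 in HFD+AE and 2.75 in HFD+RE, against 0.795 in NC (log2 change 2.42). As members of a multigene family they can share reads. Ttc39a, which encodes a tetratricopeptide repeat protein, averaged 5.84 CPM in HFD, 2.16 in HFD+AE and 1.72 in HFD+RE, against 0.371 in NC (log2 change 2.92). Lingo4, a leucine-rich repeat membrane protein, averaged 4.41 CPM in HFD, 2.46 in HFD+AE and 3.17 in HFD+RE, against 0.605 in NC (log2 change 2.39). Themis averaged 24.3 CPM in HFD, 6.99 in HFD+AE and 5.08 in HFD+RE, against 0.795 in NC and is described with the genes that differed among the high-fat groups.

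Below this upper end, genes with known liver roles also rose in each high-fat group; they were picked for their known functions after their values had been seen. Abcd2, a peroxisomal importer of very-long-chain acyl groups, averaged 34.1 CPM in HFD, 51.5 in HFD+AE and 34.7 in HFD+RE, against 10.1 in NC. Dio1, the deiodinase that activates thyroid hormone, averaged 162 CPM in HFD, 174 in HFD+AE and 156 in HFD+RE, against 64.6 in NC. Serpina6, the corticosteroid-binding globulin of plasma, averaged 307 CPM in HFD, 532 in HFD+AE and 389 in HFD+RE, against 163 in NC. Sod3, an extracellular superoxide dismutase, averaged 33.4 CPM in HFD, 32.4 in HFD+AE and 33.6 in HFD+RE, against 9.65 in NC. Esrrg, an orphan nuclear receptor, averaged 6.503 CPM in HFD, 13.7 in HFD+AE and 7.65 in HFD+RE, against 2.02 in NC. Slc2a5, the fructose transporter GLUT5, averaged 8.36 CPM in HFD, 11.8 in HFD+AE and 13.6 in HFD+RE, against 3.98 in NC. Slc47a1, an exporter of organic cations, averaged 162 CPM in HFD, 183 in HFD+AE and 176 in HFD+RE, against 97.7 in NC. Igfbp5, an IGF binding protein, averaged 8.78 CPM in HFD, 9.95 in HFD+AE and 9.24 in HFD+RE, against 2.13 in NC. Prnp, the prion protein gene, averaged 56.0 CPM in HFD, 51.2 in HFD+AE and 52.4 in HFD+RE, against 22.7 in NC. Their log2 changes lay between 0.83 for Slc47a1 and 2.13 for Esrrg.

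**Figure D1:**
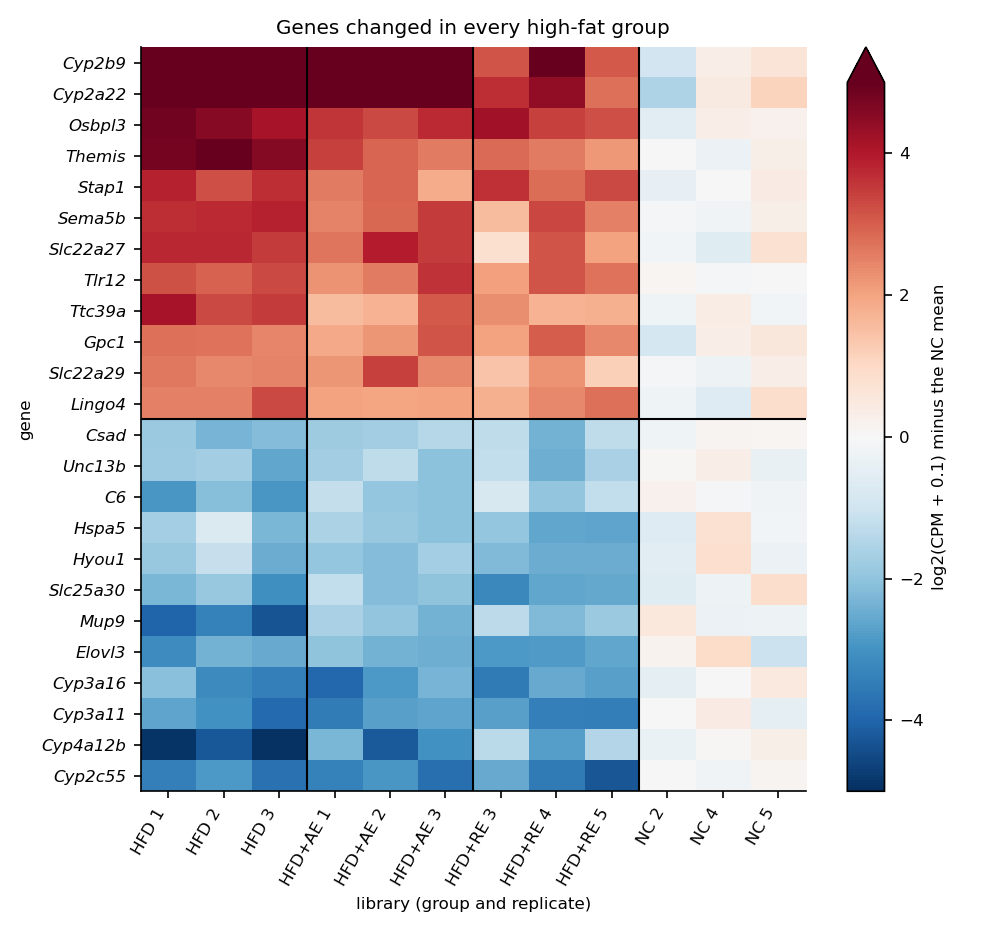
Heat map of the 12 genes that rose most and the 12 that fell most among those called in each high-fat group, by library; colour is log2(CPM + 0.1) minus the NC mean of the gene, red above and blue below, and black lines part the groups HFD, HFD+AE, HFD+RE and NC. Genes were chosen for no overlap between high-fat and NC libraries, so the 9 high-fat columns lie on 1 side of NC in every row by selection.

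At the lower end, P450 enzymes of the Cyp2c, Cyp3a and Cyp4a subfamilies stood out. Cyp3a11, the main mouse counterpart of the human drug-metabolising enzyme CYP3A4, had 718, 555 and 305 CPM in HFD, 394, 678 and 724 in HFD+AE and 679, 419 and 410.2 in HFD+RE, against 4551, 5926 and 3307 in NC. The highest of the 9 high-fat libraries was far below the lowest NC library, with log2 changes of -3.13 in HFD, -2.94 in HFD+AE and -3.19 in HFD+RE (combined -3.09 ± 0.26 SE, adjusted p = 9.9e-05). The test of a difference among the high-fat groups gave an adjusted p of 0.87, and the difference from HFD was 0.19 (95% interval -0.56 to 0.94) in HFD+AE and -0.065 (95% interval -0.81 to 0.68) in HFD+RE on the log2 scale. Its neighbours on chromosome 5, Cyp3a16, Cyp3a41b and Cyp3a44, also fell in each group. Cyp3a16 averaged 0.815 CPM in HFD, 0.736 in HFD+AE and 0.755 in HFD+RE, against 6.39 in NC. Cyp3a44 averaged 0.167 CPM in HFD, 0.409 in HFD+AE and 0.181 in HFD+RE, against 2.05 in NC. Cyp3a41b averaged 0.115 CPM in HFD, 0.0575 in HFD+AE and 0.0885 in HFD+RE, against 1.64 in NC. These copies are close in sequence and were counted at low levels, so a part of their reads may come from each other.

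Cyp2c55 averaged 0.688 ± 0.241 CPM in HFD, 0.689 ± 0.235 in HFD+AE and 0.710 ± 0.487 in HFD+RE, against 7.73 ± 0.806 in NC, a log2 change of -3.48 ± 0.31 (adjusted p = 0.000141) with the same size in each group. Cyp4a12b, an androgen-dependent fatty acid hydroxylase of male mice, averaged 2.42 ± 0.750 CPM in HFD, 8.06 ± 4.83 in HFD+AE and 19.0 ± 8.44 in HFD+RE, against 64.3 ± 13.3 in NC, and its log2 change was -4.74 in HFD, -3.00 in HFD+AE and -1.76 in HFD+RE. Elovl3 (chr19:46131897-46135694), which lengthens very-long-chain fatty acids, had 28.2, 48.3 and 42.9 CPM in HFD, 62.6, 48.0 and 45.9 in HFD+AE and 34.3, 34.9 and 41.3 in HFD+RE, against 281, 469 and 118 in NC. The NC libraries were themselves spread, with NC 5 lowest, yet the high-fat libraries stayed below all of them (log2 change -2.77 ± 0.27, adjusted p = 0.000241). Slc25a30, a carrier of the inner mitochondrial membrane, averaged 18.6 ± 7.11 CPM in HFD, 27.7 ± 10.1 in HFD+AE and 13.7 ± 3.21 in HFD+RE, against 104 ± 60.1 in NC. Mup9, a major urinary protein gene of a multi-copy family, averaged 1.29 CPM in HFD, 5.03 in HFD+AE and 5.91 in HFD+RE, against 20.7 in NC. Csad, the decarboxylase that makes hypotaurine on the way to taurine, averaged 46.9 ± 8.28 CPM in HFD, 64.8 ± 8.25 in HFD+AE and 69.0 ± 25.7 in HFD+RE, against 203 ± 23.5 in NC; its exons overlap those of Zfp740 on the other strand and the strand setting of the counting is not given in the sources used here. Unc13b, a vesicle-priming protein, averaged 4.81 CPM in HFD, 6.14 in HFD+AE and 6.08 in HFD+RE, against 20.1 in NC, and C6, a component of the terminal complement complex, averaged 63.1 ± 21.6 CPM in HFD, 119 ± 40.03 in HFD+AE and 159.6 ± 60.2 in HFD+RE, against 383 ± 56.5 in NC. Log2 changes were -2.43 for Slc25a30, -2.62 for Mup9, -1.77 for Csad, -1.83 for Unc13b and -1.85 for C6.

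Further genes that fell in each high-fat group, again picked for known roles after their values were seen, included transporters and enzymes of growth. Slc30a10, the manganese exporter, averaged 20.6 CPM in HFD, 18.9 in HFD+AE and 21.9 in HFD+RE, against 63.1 in NC. Slco2a1, the prostaglandin transporter, averaged 32.0 CPM in HFD, 50.1 in HFD+AE and 47.0 in HFD+RE, against 112 in NC. Cad, the enzyme that starts pyrimidine synthesis, averaged 7.31 CPM in HFD, 9.39 in HFD+AE and 7.49 in HFD+RE, against 22.7 in NC. Tars, threonyl-tRNA synthetase, averaged 61.4 CPM in HFD, 73.8 in HFD+AE and 68.2 in HFD+RE, against 142 in NC. Crem, a cAMP-responsive transcription factor, averaged 15.9 CPM in HFD, 15.5 in HFD+AE and 14.8 in HFD+RE, against 30.8 in NC. Spcs2, a subunit of the signal peptidase of the endoplasmic reticulum, averaged 53.7 CPM in HFD, 48.3 in HFD+AE and 51.6 in HFD+RE, against 85.1 in NC. Retreg1, a receptor for the autophagy of that compartment, averaged 47.7 CPM in HFD, 61.5 in HFD+AE and 55.7 in HFD+RE, against 131 in NC. Log2 changes ran from -1.62 for Slc30a10 to -0.73 for Spcs2.

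As a list, chaperones of the endoplasmic reticulum were lower than in NC in each high-fat group, although few of them were called in every group. Of 24 tested members of a list of such chaperones and of the unfolded protein response, 17 fell, none rose and 7 did not pass, where 4.33% of all genes tested fell. The median log2 change of the list was -1.08, against 0.0011 over all genes, and it was -0.84 in HFD, -1.07 in HFD+AE and -1.12 in HFD+RE. Summed over the list, the level was 2811 to 5894 CPM in HFD, 3483 to 4114 in HFD+AE and 2967 to 3458 in HFD+RE, against 6464 to 11688 in NC. Group by group, 9 members fell and 1 rose in HFD, 7 fell in HFD+AE and 12 fell in HFD+RE. Of all genes tested, 7.19%, 0.481% and 1.28% fell in these groups. Only 3 members fell in each group. Without HFD+AE 3 and HFD+RE 3, 16 members fell and 1 rose, and with the replicate number as a block 1 fell. The combined count of 17 rested on NC 4, which had the highest chaperone levels: without that library 4 members fell, and without NC 2 or NC 5 it was 13 or 14.

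The promoters of several of these genes hold the endoplasmic reticulum stress response element, a CCAAT box and a CCACG box at a fixed distance, which is bound by ATF6 together with NF-Y. It was searched as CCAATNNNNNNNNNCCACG on both strands of RefSeq windows of GRCm38.p6, which has the coordinates of mm10, from 250 bases before to 50 bases after each gene's start. The element was in the windows of 8 of the 22 list members that had a window (36.4%), of 21 of 11928 tested genes (0.176%) and of 39 of all 32851 windows (0.119%). All 8 members with the element fell; without NC 4, 2 of the 8 were called, Hspa5 and Creld2. The element was first described in promoters of such chaperone genes, so its presence in them is no independent finding. The upstream part of the promoter of Hspa5, chr2:34771840-34772089 on the plus strand, is shown because Hspa5 is the only gene lower in each high-fat group whose window holds the element (38 of those 53 genes had a window). The fixed letters of the element are in capitals.
Hspa5 upstream region: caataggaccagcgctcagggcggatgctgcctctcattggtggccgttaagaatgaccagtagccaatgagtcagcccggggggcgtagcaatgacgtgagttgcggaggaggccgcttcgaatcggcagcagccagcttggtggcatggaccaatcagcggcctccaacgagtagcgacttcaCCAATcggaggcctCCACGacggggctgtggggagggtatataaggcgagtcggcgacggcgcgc
The 9 elements of the 8 genes follow with 8 bases on each side, in the orientation of the motif, to show how little but the fixed letters they share.
Hspa5, chr2:34772017-34772051, plus strand: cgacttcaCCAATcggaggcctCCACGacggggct
Creld2, chr15:88819512-88819546, minus strand: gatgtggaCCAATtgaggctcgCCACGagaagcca
Derl3, chr10:75893234-75893268, minus strand: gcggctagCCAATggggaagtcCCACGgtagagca
Hsp90b1, chr10:86705630-86705664, minus strand: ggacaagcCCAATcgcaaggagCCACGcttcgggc
Hsp90b1, chr10:86705525-86705559, plus strand: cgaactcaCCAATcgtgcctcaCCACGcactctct
Pdia6, chr12:17266483-17266517, plus strand: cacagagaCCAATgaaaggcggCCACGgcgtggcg
Dnajc3, chr14:118937819-118937853, plus strand: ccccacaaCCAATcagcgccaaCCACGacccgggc
Syvn1, chr19:6046524-6046558, plus strand: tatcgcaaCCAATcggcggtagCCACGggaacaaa
Calr, chr8:84847067-84847101, plus strand: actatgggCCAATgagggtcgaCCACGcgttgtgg
Outside the list, 13 further tested genes had the element; 1 of them fell, the lectin chaperone Canx (log2 change -0.76, adjusted p = 0.0369), and the other 12 did not pass.

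Hspa5, also known as BiP, the most studied chaperone of the compartment, had 524, 1048 and 349 CPM in HFD, 574, 459.6 and 419 in HFD+AE and 455, 285 and 275 in HFD+RE, against 1108, 2929 and 1554 in NC. All high-fat libraries were below all NC libraries, although HFD 2 came close to NC 2 (log2 change -1.98 ± 0.31, adjusted p = 0.00299). Hyou1, a chaperone that also acts as exchange factor for Hspa5, averaged 137 ± 62.9 CPM in HFD, 121 ± 19.9 in HFD+AE and 87.7 ± 8.96 in HFD+RE, against 498 ± 271 in NC (log2 change -2.14). Dnajb11, a co-chaperone, averaged 62.1 ± 22.3 CPM in HFD, 63.4 ± 9.09 in HFD+AE and 53.9 ± 5.79 in HFD+RE, against 151 ± 41.3 in NC (log2 change -1.34). With Hspa5 these are the 3 members called in each group. Hsp90b1, the chaperone GRP94, averaged 494 CPM in HFD, 353 in HFD+AE and 335 in HFD+RE, against 948 in NC. Pdia6, a disulfide isomerase, averaged 172 CPM in HFD, 165 in HFD+AE and 143 in HFD+RE, against 369 in NC. Calr, calreticulin, averaged 659 CPM in HFD, 645 in HFD+AE and 558 in HFD+RE, against 1109 in NC. Dnajc3, a co-chaperone that also restrains the kinase PERK, averaged 224 CPM in HFD, 226 in HFD+AE and 205 in HFD+RE, against 426 in NC. Creld2, a disulfide isomerase-like protein, averaged 50.9 CPM in HFD, 19.2 in HFD+AE and 15.8 in HFD+RE, against 121 in NC. Sdf2l1, a partner of Hspa5 cofactors, averaged 26.9 CPM in HFD, 11.6 in HFD+AE and 12.9 in HFD+RE, against 65.9 in NC. Manf, a secreted stress protein, averaged 83.0 CPM in HFD, 36.9 in HFD+AE and 35.6 in HFD+RE, against 132 in NC. Of the genes for degradation of misfolded protein, Derl3 averaged 7.24 CPM in HFD, 1.88 in HFD+AE and 1.59 in HFD+RE, against 23.4 in NC. Syvn1, a ubiquitin ligase of the same process, averaged 136 CPM in HFD, 69.6 in HFD+AE and 67.8 in HFD+RE, against 188 in NC. In Derl3, Syvn1, Creld2, Sdf2l1, Manf and Calr, high-fat and NC libraries overlapped. Xbp1, the transcription factor activated by IRE1, fell by a smaller amount (log2 change -0.60 ± 0.16) and averaged 152 CPM in HFD, 159.7 in HFD+AE and 179 in HFD+RE, against 247 in NC.

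The 7 members that did not pass were Atf4, Ddit3, Atf3, Trib3, Chac1, Herpud1 and Dnajb9. Atf4 to Chac1 belong to the PERK branch of the response, and Atf4 itself averaged 98.3 CPM in HFD, 75.6 in HFD+AE and 96.7 in HFD+RE, against 66.9 in NC (log2 change 0.42, adjusted p = 0.148). Asns, asparagine synthetase and a target of ATF4, is the exception among the target genes of that branch in the list: it averaged 0.210 CPM in HFD, 0.390 in HFD+AE and 1.39 in HFD+RE, against 2.94 in NC (log2 change -2.59, adjusted p = 0.0171).

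**Figure D2:**
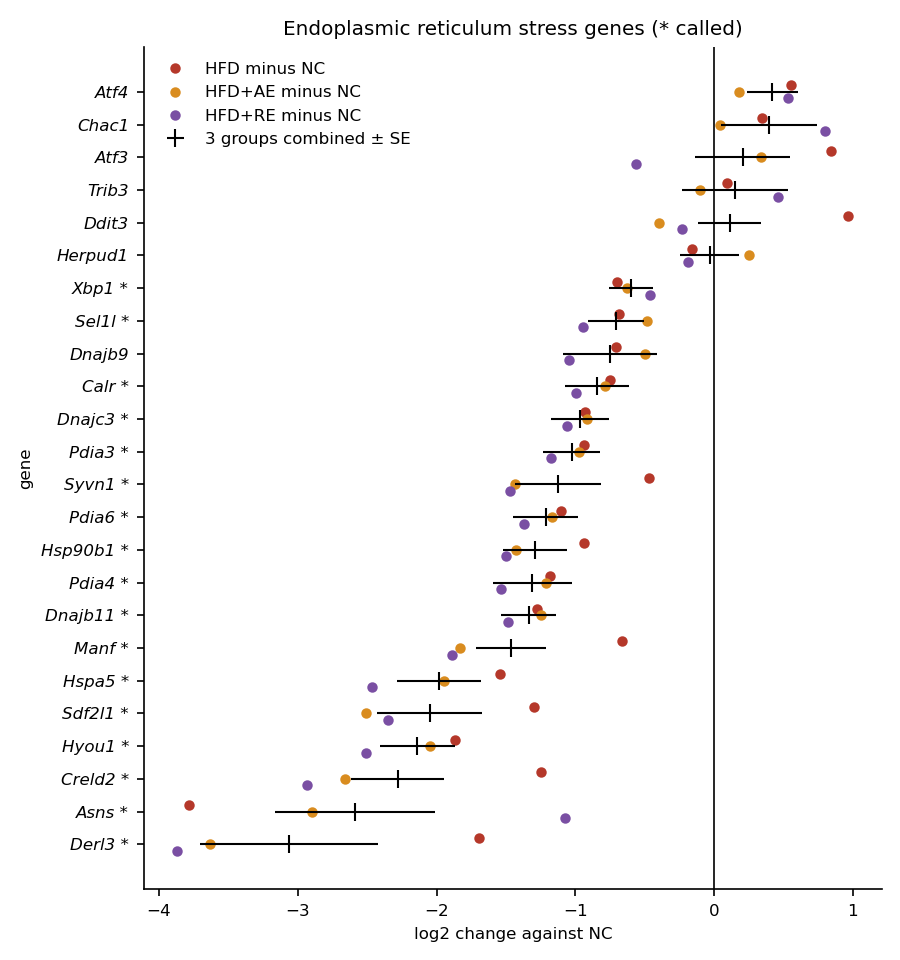
Log2 change against NC of the 24 endoplasmic reticulum genes, with a coloured point for each high-fat group and a black bar for the 3 groups combined ± SE; an asterisk marks the 17 called genes, all of them left of 0. HFD points lie nearer to 0 than those of HFD+AE and HFD+RE for Creld2, Manf, Sdf2l1 and Derl3.

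Genes with male-biased expression in mouse liver were lower on the high-fat diet. Of 19 tested, 16 fell and none rose, where 4.33% of all genes tested fell. The median log2 change was -2.08 in the combined contrast, -2.86 in HFD, -1.55 in HFD+AE and -1.26 in HFD+RE. All 19 were below 0 in the combined contrast. Their summed level was 3387 to 3766 CPM in HFD, 3919.5 to 6361 in HFD+AE and 5192 to 10225 in HFD+RE, against 13088 to 19641 in NC. Group by group, 16 fell in HFD, 5 in HFD+AE and 5 in HFD+RE, and 3 fell in each group. Of all genes tested, 7.19%, 0.481% and 1.28% fell in HFD, HFD+AE and HFD+RE. Without HFD+AE 3 and HFD+RE 3, 15 fell, and without the HFD group altogether 7 did. Without NC 4, 12 fell, and with the replicate number as a block 8 did. Besides Cyp4a12b, C6 and Elovl3, which were called in each group, Cyp7b1, the oxysterol hydroxylase of the alternative bile acid pathway, averaged 40.8 ± 16.8 CPM in HFD, 105 ± 35.1 in HFD+AE and 87.6 ± 30.7 in HFD+RE, against 278 ± 73.3 in NC (log2 change -1.95, adjusted p = 0.00115). Slco1a1, an organic anion and bile acid transporter, averaged 30.7 ± 20.6 CPM in HFD, 315 ± 215 in HFD+AE and 253 ± 157 in HFD+RE, against 597 ± 110.2 in NC, with a log2 change of -4.28 in HFD, -0.92 in HFD+AE (adjusted p = 0.56) and -1.24 in HFD+RE (adjusted p = 0.234). Serpina1e, an antitrypsin gene of a multi-copy family, averaged 247 CPM in HFD, 1020.1 in HFD+AE and 2242 in HFD+RE, against 7386 in NC. Mup1 had 2.59, 11.6 and 4.46 CPM in HFD, 49.2, 36.9 and 12.3 in HFD+AE and 24.6, 22.5 and 41.1 in HFD+RE, against 121, 4065 and 55.6 in NC; NC 4 alone carried most of the NC mean, and the copies of this family share reads.

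The list of genes higher in female liver was mixed: of 19 tested, 8 rose and 3 fell, where 4.9% of all genes tested rose and 4.33% fell. The median log2 change was 1.74. The 3 that fell were the Cyp3a genes of chromosome 5 described above. Among those that rose, Hao2, a peroxisomal hydroxyacid oxidase, averaged 4.88 ± 1.41 CPM in HFD, 3.09 ± 1.97 in HFD+AE and 0.919 ± 0.809 in HFD+RE, against 0.185 ± 0.0322 in NC (log2 change 3.67), with 4.69 in HFD, 4.03 in HFD+AE and 2.29 in HFD+RE. Cyp17a1, a steroid hydroxylase, averaged 13.2 ± 2.47 CPM in HFD, 43.7 ± 15.2 in HFD+AE and 58.2 ± 3.81 in HFD+RE, against 9.63 ± 5.83 in NC; its log2 change was 0.45 in HFD (adjusted p = 0.382), 2.18 in HFD+AE and 2.59 in HFD+RE, and the test of a difference among the high-fat groups gave an adjusted p of 0.0995.

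Growth hormone acts on these genes through the transcription factor STAT5, and its own pathway was followed with a list of 19 genes. Of these 5 fell and 1 rose, where 4.33% of all genes tested fell and 4.9% rose. Socs2, a feedback inhibitor induced by STAT5, averaged 6.89 ± 1.26 CPM in HFD, 13.0 ± 10.1 in HFD+AE and 7.88 ± 4.40 in HFD+RE, against 36.4 ± 25.6 in NC (log2 change -2.03, adjusted p = 0.0155). Cish, another such inhibitor, averaged 6.45 CPM in HFD, 6.05 in HFD+AE and 8.01 in HFD+RE, against 28.5 in NC. Onecut1, a transcription factor of liver, averaged 4.09 CPM in HFD, 11.2 in HFD+AE and 7.02 in HFD+RE, against 35.9 in NC. Igf1 itself averaged 619 ± 114 CPM in HFD, 697 ± 202 in HFD+AE and 754 ± 135 in HFD+RE, against 645 ± 219.8 in NC, a log2 change of 0.093 ± 0.23 that did not pass (adjusted p = 0.815). Igfbp3, a carrier of IGF1 in plasma, rose and averaged 29.6 CPM in HFD, 17.7 in HFD+AE and 22.2 in HFD+RE, against 9.77 in NC. In Socs2, Cish, Onecut1 and Igfbp3 the high-fat and NC libraries overlapped, and without the HFD group none of the 5 genes that fell was called. Without NC 5, 1 gene of the list fell, and 3 did without NC 4. The STAT5 palindrome TTCNNNGAA was in 2 of 13 male-biased promoter windows (15.4%), 4 of 15 female-biased ones (26.7%) and 8.48% of the windows of tested genes; a match in these letters is not a binding site.

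**Figure D3:**
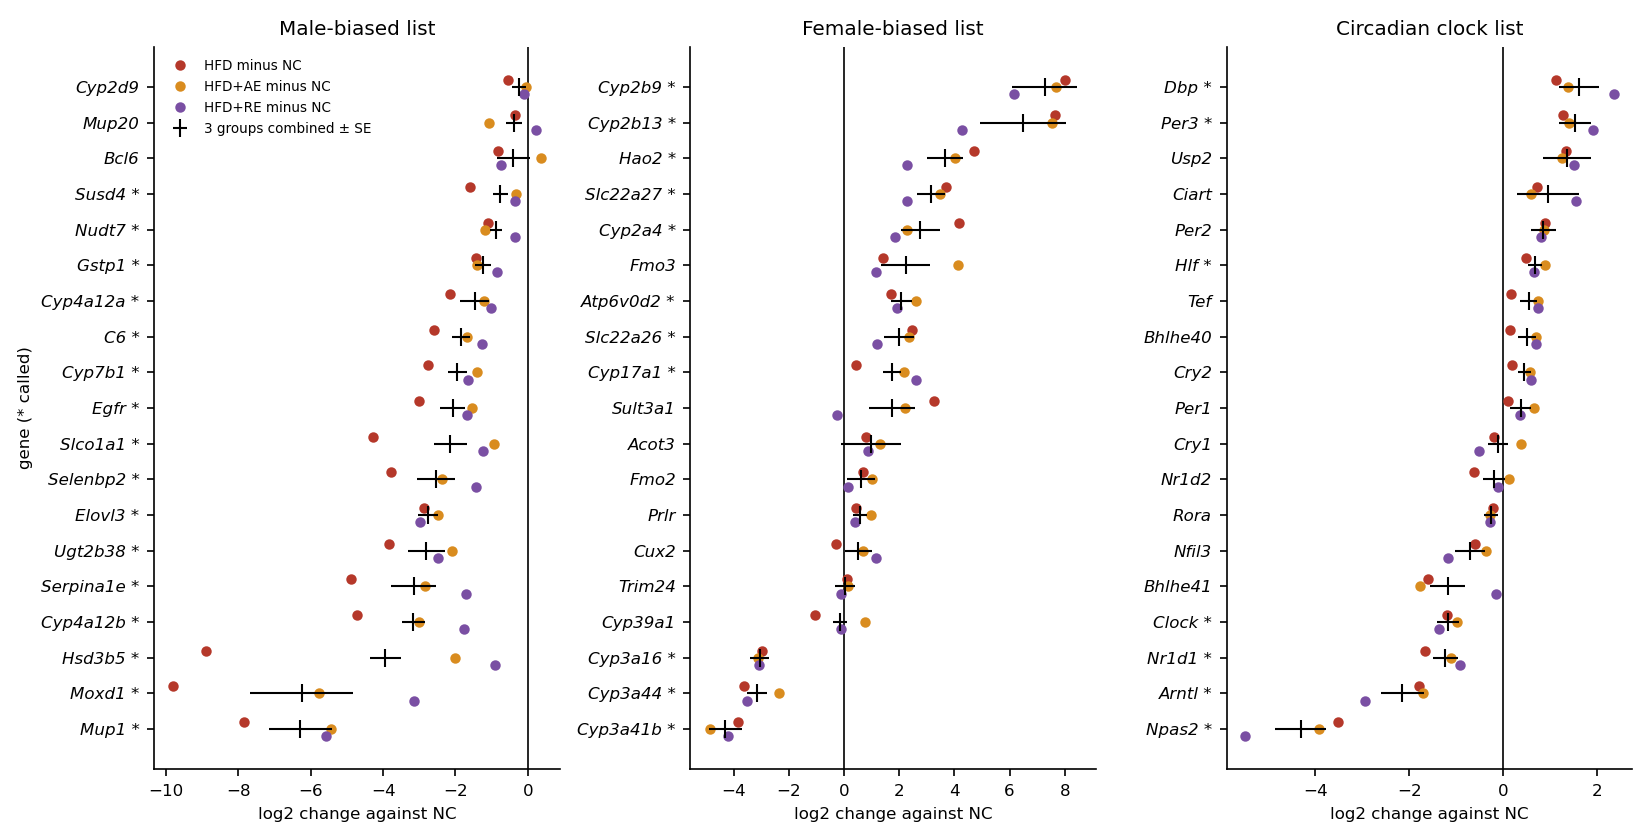
Log2 change against NC of the genes of the male-biased, female-biased and circadian clock lists; coloured points are the 3 high-fat groups, black bars the 3 groups combined ± SE, and asterisks mark called genes. Of the 20 clock genes 19 are shown. The combined bars of all 19 male-biased genes lie left of 0, and HFD points often lie farther out than those of HFD+AE and HFD+RE.

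Some enzymes and transporters of drugs, bile acids and steroids rose and others fell. In the list of drug and xenobiotic metabolism, 6 of 25 fell and 2 rose; without the HFD group 3 fell. Besides Cyp3a11 and Cyp2c55, Cyp2c29 fell and averaged 419.5 CPM in HFD, 969 in HFD+AE and 635 in HFD+RE, against 1551 in NC. Cyp1a2, which oxidises caffeine, averaged 215 CPM in HFD, 506 in HFD+AE and 349.6 in HFD+RE, against 595 in NC. Ces2a, a carboxylesterase, averaged 79.1 ± 14.4 CPM in HFD, 164 ± 28.9 in HFD+AE and 146 ± 24.6 in HFD+RE, against 378 ± 63.1 in NC and fell in each group (log2 change -1.61). The 2 that rose were Cyp2a5 and Nr1i3, which encodes the nuclear receptor CAR and averaged 49.5 ± 5.82 CPM in HFD, 80.2 ± 11.5 in HFD+AE and 49.9 ± 6.72 in HFD+RE, against 29.8 ± 1.76 in NC (log2 change 0.97 ± 0.15, adjusted p = 0.00278). Exons of Nr1i3 overlap those of Tomm40l on the other strand. Of 26 bile acid genes 3 fell and 2 rose, where 4.33% of all genes tested fell and 4.9% rose. Abcb11, the pump that exports bile salts into bile, had 247, 299 and 215 CPM in HFD, 346, 417 and 314 in HFD+AE and 433, 297 and 272 in HFD+RE, against 837, 843 and 633 in NC. High-fat and NC libraries did not overlap, and the log2 change was -1.30 ± 0.17 (adjusted p = 0.00137). Cyp8b1, the hydroxylase that directs synthesis to cholic acid, averaged 341 ± 89.6 CPM in HFD, 448 ± 145 in HFD+AE and 339 ± 117 in HFD+RE, against 126 ± 48.2 in NC and rose in each group (log2 change 1.57 ± 0.32, adjusted p = 0.0118). Cyp7a1, which catalyses the first, rate-limiting step of the classic bile acid pathway, had 93.2, 164 and 187 CPM in HFD, 355, 299 and 149 in HFD+AE and 348, 133 and 133 in HFD+RE, against 21.0, 7.20 and 339 in NC; the NC libraries lay at both ends of the high-fat range, NC 2 and NC 4 below it and NC 5 near its top, and the log2 change of 0.71 ± 0.81 did not pass (adjusted p = 0.575). Abcg5, part of the pump that secretes sterols into bile, averaged 78.9 CPM in HFD, 104 in HFD+AE and 119 in HFD+RE, against 70.6 in NC (log2 change 0.49, adjusted p = 0.0417). Of the bile acid list 1 gene rose and 2 fell without NC 4.

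Genes of lipid handling changed singly, in both directions. Of 19 genes of fatty acid uptake and triglyceride synthesis 6 rose and 1 fell, where 4.9% of all genes tested rose and 4.33% fell. Vldlr, a lipoprotein receptor, averaged 10.1 ± 1.70 CPM in HFD, 10.8 ± 2.69 in HFD+AE and 5.68 ± 2.83 in HFD+RE, against 2.24 ± 0.790 in NC (log2 change 1.92, adjusted p = 0.00469), and its 9 high-fat values were all above NC. Pparg, the nuclear receptor that drives fat storage, averaged 14.1 ± 2.33 CPM in HFD, 12.8 ± 0.488 in HFD+AE and 10.7 ± 1.72 in HFD+RE, against 7.25 ± 1.60 in NC (log2 change 0.78, adjusted p = 0.0175). Fabp2, a fatty acid binding protein, averaged 143 ± 18.8 CPM in HFD, 65.0 ± 9.79 in HFD+AE and 107 ± 27.8 in HFD+RE, against 45.2 ± 8.45 in NC. Mogat1, a monoacylglycerol acyltransferase, averaged 5.05 ± 0.790 CPM in HFD, 1.55 ± 0.548 in HFD+AE and 1.33 ± 0.696 in HFD+RE, against 0.389 ± 0.263 in NC. Dgat2, which makes triglyceride, averaged 604 CPM in HFD, 909 in HFD+AE and 754 in HFD+RE, against 479 in NC. Slc27a1, a fatty acid transport protein, averaged 13.1 CPM in HFD, 16.1 in HFD+AE and 11.7 in HFD+RE, against 6.89 in NC. Lpin1, a phosphatidate phosphatase, is the member that fell and averaged 214 CPM in HFD, 357 in HFD+AE and 248 in HFD+RE, against 729.8 in NC. Cd36, a fatty acid translocase, averaged 135 ± 51.9 CPM in HFD, 127 ± 16.8 in HFD+AE and 67.8 ± 35.6 in HFD+RE, against 50.03 ± 13.4 in NC; its log2 change of 1.07 ± 0.34 missed the threshold (adjusted p = 0.0643). Of 15 lipid droplet genes 2 rose, where 4.9% of all genes tested rose. Fitm1, which helps droplets to form at the endoplasmic reticulum, averaged 49.6 ± 3.97 CPM in HFD, 26.9 ± 11.3 in HFD+AE and 39.3 ± 21.7 in HFD+RE, against 12.8 ± 0.957 in NC. Cidea, which fuses droplets, averaged 5.80 ± 1.32 CPM in HFD, 0.340 ± 0.355 in HFD+AE and 0.815 ± 0.688 in HFD+RE, against 0.0940 ± 0.0606 in NC. Plin2, the main coat protein of hepatocyte droplets, averaged 499 ± 41.4 CPM in HFD, 384 ± 148 in HFD+AE and 388 ± 82.6 in HFD+RE, against 453 ± 127 in NC and did not pass (adjusted p = 0.78). Without NC 4, 2 uptake genes rose, and without the HFD group 1 did. No lipid droplet gene rose without NC 2, without NC 4 or without the HFD group.

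In the list of de novo lipogenesis, 1 of 19 rose and 2 fell, where 4.9% of all genes tested rose and 4.33% fell. Srebf1, the transcription factor that insulin uses to induce lipogenesis, averaged 234 ± 27.9 CPM in HFD, 273 ± 86.1 in HFD+AE and 454 ± 145 in HFD+RE, against 97.6 ± 49.2 in NC (log2 change 1.65 ± 0.34, adjusted p = 0.0125); its exons overlap those of Rai1 on the other strand. Acly, which makes acetyl-CoA from citrate, averaged 96.2 ± 13.8 CPM in HFD, 165 ± 41.4 in HFD+AE and 149 ± 60.4 in HFD+RE, against 273 ± 32.4 in NC (log2 change -1.03). Scd1, the stearoyl-CoA desaturase, had 1863, 1558 and 1498 CPM in HFD, 1936, 2240.3 and 1943 in HFD+AE and 3278, 5379 and 8093 in HFD+RE, against 8183, 3923 and 8746 in NC. Libraries of HFD and HFD+AE were below all NC libraries, whereas HFD+RE overlapped with NC; the log2 change was -2.08 in HFD, -1.77 in HFD+AE and -0.32 in HFD+RE, and the test among the high-fat groups did not pass (adjusted p = 0.104). Idi1 was the only called member of 24 cholesterol synthesis genes, and averaged 8.30 CPM in HFD, 31.9 in HFD+AE and 14.3 in HFD+RE, against 44.6 in NC; it lost its call on leaving out any one of HFD 1, HFD 3, HFD+AE 1, HFD+RE 3, HFD+RE 4, HFD+RE 5, NC 2 and NC 4. The list of fatty acid oxidation, which includes targets of PPARA, had 5 of 30 members that rose and none that fell. Ppara averaged 192 ± 15.7 CPM in HFD, 248 ± 12.7 in HFD+AE and 195 ± 37.6 in HFD+RE, against 131 ± 5.42 in NC (log2 change 0.68, adjusted p = 0.0155). Hadh, an enzyme of mitochondrial beta-oxidation, averaged 369 CPM in HFD, 473 in HFD+AE and 389 in HFD+RE, against 264 in NC. Acaa1b, a peroxisomal thiolase, averaged 1006 CPM in HFD, 935 in HFD+AE and 784 in HFD+RE, against 481 in NC. Fgf21, a secreted hormone induced by PPARA, averaged 7.62 CPM in HFD, 4.59 in HFD+AE and 4.51 in HFD+RE, against 1.63 in NC. Vnn1, a pantetheinase, averaged 115 CPM in HFD, 125 in HFD+AE and 72.5 in HFD+RE, against 42.4 in NC. Without NC 2 or NC 4 none of the 5 was called. None of 24 nuclear-encoded respiratory chain subunits was called in the combined contrast. In HFD against NC 3 of the 24 rose, where 8.38% of all genes tested rose.

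Circadian clock genes were shifted in both directions. Of 20 tested, 4 rose and 4 fell, where 4.9% of all genes tested rose and 4.33% fell. Npas2, a partner of BMAL1, averaged 0.125 ± 0.0357 CPM in HFD, 0.0907 ± 0.0438 in HFD+AE and 0.0292 ± 0.0260 in HFD+RE, against 1.45 ± 1.33 in NC and was called in each group (log2 change -4.31 ± 0.55, adjusted p = 0.00099), although its counts were low on the high-fat diet. Clock averaged 32.9 ± 6.19 CPM in HFD, 38.0 ± 12.0 in HFD+AE and 29.0 ± 10.2 in HFD+RE, against 75.1 ± 26.0 in NC. Arntl, which encodes its partner BMAL1, had 1.401, 4.67 and 2.86 CPM in HFD, 4.21, 2.32 and 3.05 in HFD+AE and 1.15, 1.80 and 1.11 in HFD+RE, against 10.8, 18.5 and 1.96 in NC. Nr1d1, the repressor REV-ERB alpha, averaged 22.6 CPM in HFD, 33.0 in HFD+AE and 38.0 in HFD+RE, against 71.6 in NC. Per3, a period protein, averaged 45.0 CPM in HFD, 49.2 in HFD+AE and 69.5 in HFD+RE, against 18.5 in NC. The output factor Dbp averaged 46.1 CPM in HFD, 55.1 in HFD+AE and 108 in HFD+RE, against 21.2 in NC, and its exons overlap those of Sphk2 on the other strand. Hlf, of the family of Dbp, averaged 86.7 CPM in HFD, 115 in HFD+AE and 96.3 in HFD+RE, against 61.6 in NC. Log2 changes were -1.18 for Clock, -2.15 for Arntl, -1.23 for Nr1d1, 1.53 for Per3, 1.61 for Dbp and 0.68 for Hlf, with adjusted p from 0.012 to 0.0348.

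The NC libraries were not alike in these genes. NC 5 had 1.96 CPM of Arntl, inside the high-fat range of 1.11 to 4.67, whereas NC 2 and NC 4 had 10.8 and 18.5. Usp2, a rhythmic ubiquitin protease, was 79.9 in NC 5, also inside the high-fat range (67.7 to 120.4), and 14.5 and 8.74 in NC 2 and NC 4; it did not pass (log2 change 1.36, adjusted p = 0.109). Per3, Dbp and Cyp7a1 were likewise highest in NC 5 among the NC libraries. The time of day of sampling is not given in the sources used here, and its part in the clock results was not tested. Without NC 5, 8 clock genes rose and 4 fell; without NC 4, 1 rose and 1 fell.

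Insulin signalling and secreted liver proteins gave fewer calls. Irs1 and Irs2, which link the insulin receptor to its kinases, fell as the only called members among 16 genes of gluconeogenesis, glycogen and insulin signalling. Irs1 averaged 5.57 ± 3.17 CPM in HFD, 16.5 ± 2.76 in HFD+AE and 7.15 ± 6.06 in HFD+RE, against 26.2 ± 12.0 in NC (log2 change -1.59, adjusted p = 0.0277). Irs2 averaged 13.7 ± 7.28 CPM in HFD, 24.7 ± 3.87 in HFD+AE and 15.7 ± 4.52 in HFD+RE, against 40.3 ± 8.23 in NC (log2 change -1.21, adjusted p = 0.0175). Igfbp1, an insulin-repressed binding protein, had 17.3, 30.4 and 6.15 CPM in HFD, 92.4, 99.6 and 66.1 in HFD+AE and 19.3, 12.8 and 10.2 in HFD+RE, against 129.9, 39.5 and 77.3 in NC. HFD and HFD+RE were below NC, HFD+AE was at the NC level, and the combined log2 change of -1.56 (adjusted p = 0.0227) averages over these; the difference of HFD+AE from HFD was 2.26 (95% interval 1.16 to 3.37), but the test among the 3 groups did not pass (adjusted p = 0.0995). Of 17 secreted liver proteins tied to diet and exercise, 5 rose and 1 fell, where 4.9% of all genes tested rose and 4.33% fell. Angptl8, an insulin-induced inhibitor of lipoprotein lipase activity, averaged 48.5 ± 33.0 CPM in HFD, 28.4 ± 3.06 in HFD+AE and 57.6 ± 17.9 in HFD+RE, against 15.6 ± 4.52 in NC (log2 change 1.46). Inhbe, the subunit of activin E, averaged 112 CPM in HFD, 84.8 in HFD+AE and 95.4 in HFD+RE, against 49.0 in NC. Lect2, a leukocyte chemotaxin, averaged 119.8 CPM in HFD, 139 in HFD+AE and 111 in HFD+RE, against 79.4 in NC. None of the 5 rises of secreted proteins was called without NC 4; 1 gene of the list rose without NC 2, without HFD 1 or without the HFD group, and 2 did without NC 5. Neither Irs1 nor Irs2 was called without NC 4, and Irs1 was also lost without NC 2, HFD 1, HFD 3 or the HFD group, and Irs2 without NC 5.

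Of 21 acute phase proteins 3 fell and 1 rose, where 4.33% of all genes tested fell and 4.9% rose. The 3 that fell were the fibrinogen chains. Fga averaged 2253 CPM in HFD, 3294 in HFD+AE and 2897 in HFD+RE, against 6037 in NC. Fgb averaged 2649 CPM in HFD, 3095 in HFD+AE and 3321 in HFD+RE, against 6135 in NC. Fgg averaged 1617 CPM in HFD, 1698 in HFD+AE and 1922 in HFD+RE, against 3590.1 in NC, and in all 3 chains the high-fat libraries overlapped with NC. None of the list fell without NC 2, NC 4, HFD 1 or the HFD group, and without NC 2 the median log2 change of the list was 0.21, against -0.40 with all libraries. Of 24 complement and coagulation genes 3 fell, C6, C8b and C9, all of the terminal complement complex, where 4.33% of all genes tested fell. C8b averaged 84.3 CPM in HFD, 200.2 in HFD+AE and 198 in HFD+RE, against 393 in NC. C9 averaged 302 CPM in HFD, 303 in HFD+AE and 329 in HFD+RE, against 655 in NC, with no overlap. Without NC 2, without NC 4 or without the HFD group, 1 gene of this list fell. In amino acid metabolism 2 of 25 genes rose and 2 fell, against those shares of 4.9% and 4.33% over all genes tested. Prodh, proline dehydrogenase, averaged 245 ± 51.3 CPM in HFD, 282 ± 49.9 in HFD+AE and 327 ± 51.5 in HFD+RE, against 141 ± 30.0 in NC and rose in each group. Bhmt, which remethylates homocysteine, averaged 2638 CPM in HFD, 2372 in HFD+AE and 2243 in HFD+RE, against 1057 in NC. Cbs, which removes homocysteine, fell and averaged 251 CPM in HFD, 285 in HFD+AE and 383 in HFD+RE, against 514 in NC. In this list none rose without NC 4, and none fell without NC 2 or without the HFD group.

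Transcripts of matrix and stellate cells, the vitamin A storing cells that make collagen in injured liver, were higher. Of 13 stellate markers 7 rose and none fell, and of 23 collagen and matrix genes 7 rose and none fell, where 4.9% of all genes tested rose. Colec11 averaged 29.2 ± 2.81 CPM in HFD, 28.4 ± 9.44 in HFD+AE and 33.1 ± 3.04 in HFD+RE, against 12.9 ± 0.790 in NC and was called in each group (log2 change 1.23, adjusted p = 0.00245). Cygb, cytoglobin, averaged 13.1 ± 3.84 CPM in HFD, 10.6 ± 6.67 in HFD+AE and 12.9 ± 1.74 in HFD+RE, against 3.64 ± 0.177 in NC. Hand2, a transcription factor, averaged 4.71 ± 0.478 CPM in HFD, 4.27 ± 2.26 in HFD+AE and 4.88 ± 1.41 in HFD+RE, against 1.77 ± 0.336 in NC. Its exons overlap those of Hand2os1 on the other strand. Lrat, which esterifies retinol, averaged 21.4 CPM in HFD, 19.0 in HFD+AE and 19.7 in HFD+RE, against 11.3 in NC. Pdgfrb, a growth factor receptor, averaged 7.44 CPM in HFD, 7.06 in HFD+AE and 6.02 in HFD+RE, against 3.57 in NC. Rgs5, a regulator of G protein signalling, averaged 38.3 CPM in HFD, 40.1 in HFD+AE and 48.5 in HFD+RE, against 25.04 in NC. The summed level of the 13 markers was 227 to 254 CPM in HFD, 236 to 392 in HFD+AE and 256 to 289.9 in HFD+RE, against 141 to 161 in NC. Of the matrix genes, Bgn, the proteoglycan biglycan, averaged 75.8 ± 9.89 CPM in HFD, 98.7 ± 33.9 in HFD+AE and 87.5 ± 7.75 in HFD+RE, against 46.7 ± 0.108 in NC. Col6a1, a collagen VI chain, averaged 7.48 ± 1.11 CPM in HFD, 8.29 ± 2.52 in HFD+AE and 7.74 ± 1.42 in HFD+RE, against 3.91 ± 0.340 in NC. Both were called in each group. Dcn, decorin, averaged 171 ± 40.7 CPM in HFD, 107 ± 10.3 in HFD+AE and 128 ± 14.2 in HFD+RE, against 65.6 ± 5.51 in NC. Col3a1, a fibrillar collagen, averaged 25.4 CPM in HFD, 17.0 in HFD+AE and 13.4 in HFD+RE, against 8.89 in NC. Col1a1, another, averaged 11.8 ± 4.63 CPM in HFD, 5.08 ± 2.67 in HFD+AE and 3.93 ± 0.656 in HFD+RE, against 2.94 ± 1.33 in NC and did not pass (adjusted p = 0.0731). The counts depended on single NC libraries: 2 stellate markers rose without NC 2, 3 without NC 4 and 3 without NC 5, and 1 matrix gene rose without NC 2 or NC 4. Without the HFD group 2 stellate markers and 3 matrix genes rose. With the replicate number as a block no gene of either list rose. Group by group, 5 stellate markers rose in HFD, 2 in HFD+AE and 3 in HFD+RE. Of the matrix genes 8 rose in HFD, 3 in HFD+AE and 3 in HFD+RE. Of all genes tested, 8.38% rose in HFD, 0.901% in HFD+AE and 2.67% in HFD+RE.

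Interferon-stimulated genes rose in 8 of 32 cases, where 4.9% of all genes tested rose, and fell in none. Without NC 4 1 of them rose, without NC 5 2, without NC 2 4, and 4 each without HFD 1, HFD 3 or HFD+RE 4. Ifit3 averaged 19.3 ± 3.87 CPM in HFD, 11.1 ± 1.36 in HFD+AE and 13.9 ± 2.44 in HFD+RE, against 5.57 ± 1.83 in NC (log2 change 1.36, adjusted p = 0.00389). Ifit1, of the same family of RNA-binding antiviral proteins, averaged 14.0 CPM in HFD, 7.85 in HFD+AE and 8.32 in HFD+RE, against 4.33 in NC. Isg15, a ubiquitin-like protein, averaged 11.9 CPM in HFD, 5.70 in HFD+AE and 8.36 in HFD+RE, against 4.09 in NC. Xaf1, linked to apoptosis, averaged 9.40 CPM in HFD, 5.12 in HFD+AE and 6.53 in HFD+RE, against 3.35 in NC. Each of these 4 had its highest mean in HFD, and without the HFD group 1 interferon gene rose. Psmb9, an immunoproteasome subunit, averaged 28.3 ± 7.05 CPM in HFD, 15.8 ± 3.49 in HFD+AE and 22.1 ± 5.80 in HFD+RE, against 8.77 ± 1.52 in NC. Il1rn, which encodes the receptor antagonist of interleukin-1, averaged 8.53 CPM in HFD, 4.76 in HFD+AE and 4.96 in HFD+RE, against 2.88 in NC.

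Markers of other cells gave few calls in the combined contrast, and more in HFD alone, where 8.38% of all genes tested rose and 7.19% fell. In the combined contrast these shares were 4.9% and 4.33%. In resident Kupffer cells 1 of 12 fell, Cd163, a haemoglobin scavenger receptor (7.02 CPM in HFD, 23.8 in HFD+AE and 10.5 in HFD+RE, against 40.2 in NC), and 11 of the 12 had a log2 change below 0. The summed level of the Kupffer markers was 156 to 306 CPM in HFD, 337 to 454 in HFD+AE and 85.8 to 433 in HFD+RE, against 309 to 512 in NC. In recruited macrophages 2 of 11 fell, Cd9 (7.23 CPM in HFD, 5.40 in HFD+AE and 6.46 in HFD+RE, against 14.8 in NC), which was called in each group, and Fabp5 (2.38 CPM in HFD, 4.04 in HFD+AE and 11.8 in HFD+RE, against 19.6 in NC). Most of this list went the other way: 8 of the 11 had a log2 change above 0, with a list median of 0.58. In HFD alone 2 of them rose and 2 fell. Of 13 endothelial markers 1 fell, Wnt2 (1.59 CPM in HFD, 2.06 in HFD+AE and 1.05 in HFD+RE, against 3.13 in NC), 12 had a log2 change below 0, and 4 fell in HFD. Their summed level was 138 to 240.5 CPM in HFD, 274 to 482 in HFD+AE and 123 to 352 in HFD+RE, against 331 to 416 in NC. In HFD the sums of both Kupffer and endothelial markers lay below the NC range. Of 11 B and plasma cell markers 2 rose, among them Pax5 (1.55 CPM in HFD, 0.416 in HFD+AE and 0.862 in HFD+RE, against 0.211 in NC), all 11 had a log2 change above 0, and 8 rose in HFD. Their summed level was 44.8 to 174 CPM in HFD, 38.8 to 40.3 in HFD+AE and 55.7 to 105 in HFD+RE, against 28.8 to 46.1 in NC. None of the 15 T and NK cell, 6 neutrophil, 6 cholangiocyte, 7 red cell and 2 fat cell markers was called in the combined contrast, but 7 T and NK cell markers and both fat cell markers rose in HFD. The summed level of T and NK cell markers was 7.80 to 64.9 CPM in HFD, 4.70 to 9.87 in HFD+AE and 8.47 to 12.2 in HFD+RE, against 6.36 to 15.5 in NC. That of the fat cell markers was 13.0 to 51.6 CPM in HFD, 4.61 to 7.88 in HFD+AE and 8.54 to 11.1 in HFD+RE, against 5.199 to 6.47 in NC, so that HFD and HFD+RE lay above NC; 4 of the 6 fat cell markers, Adipoq and Plin1 among them, had too few counts to be tested. No Kupffer, endothelial, B cell or hepatocyte marker was called without NC 2, without NC 4 or without the HFD group, nor was Fabp5. Of the hepatocyte markers Fgb and Hnf4a fell; Hnf4a, a master regulator of hepatocytes, averaged 585 ± 116 CPM in HFD, 871 ± 91.6 in HFD+AE and 622 ± 13.8 in HFD+RE, against 1048 ± 66.9 in NC (log2 change -0.62). Alb averaged 49021 ± 11930.0 CPM in HFD, 82981 ± 3730.0 in HFD+AE and 73180.0 ± 14725 in HFD+RE, against 91652 ± 10850.0 in NC and did not pass (adjusted p = 0.146). The part of cell make-up in the gene results was not tested.

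**Figure D4:**
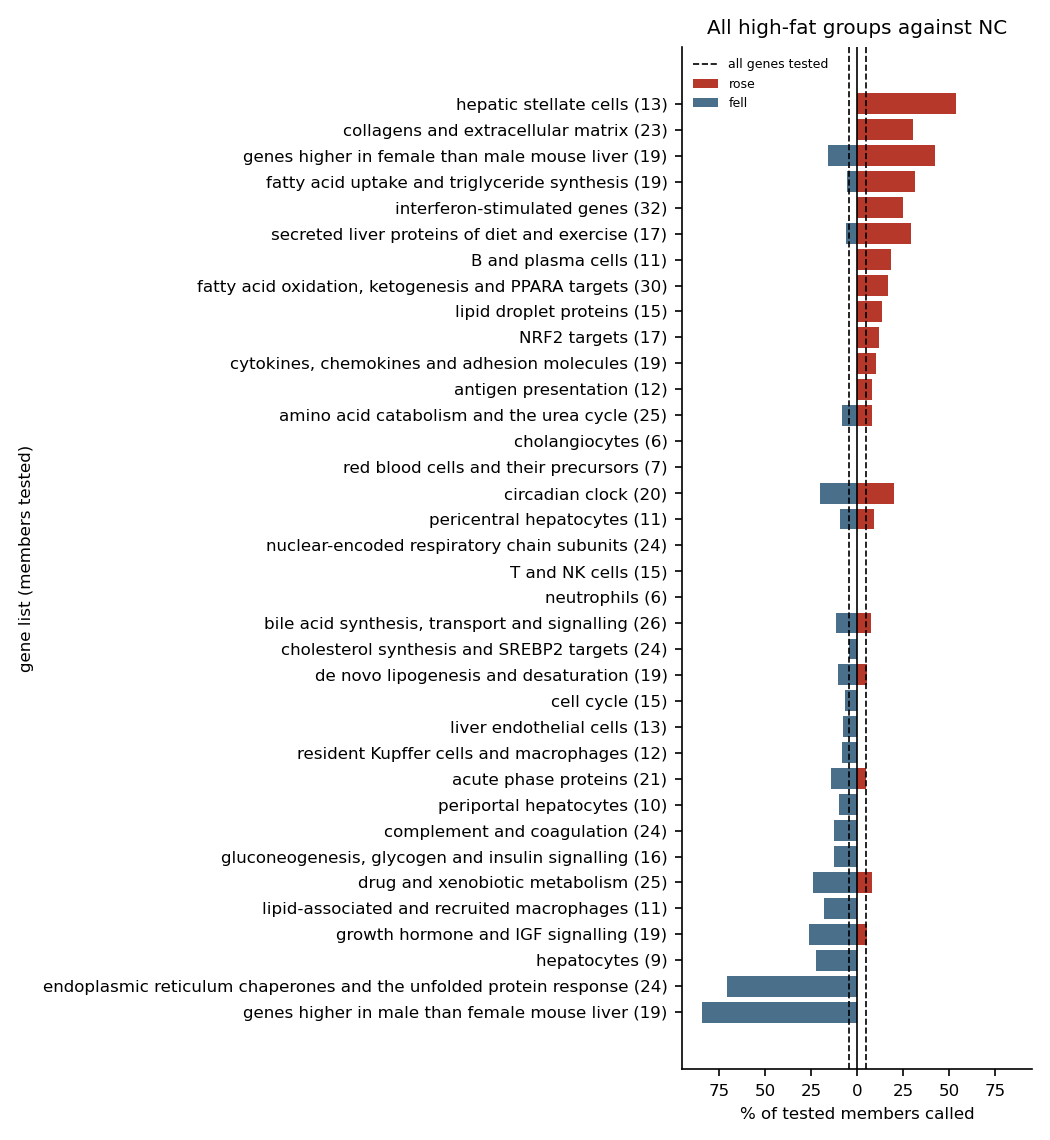
Share of the tested members of each gene list with 6 or more of them that rose (right, red) or fell (left, blue) in all high-fat groups against NC; the number tested is in brackets, and dashed lines give the shares over all genes, 4.9% and 4.33%. The male-biased and endoplasmic reticulum lists reach farthest to the left and the stellate cell list farthest to the right.

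Whether the level on the high-fat diet depended on the exercise state was tested directly, with the 3 high-fat groups against each other. In edgeR, 4 of 18305 genes passed (0.0219%): Hsd3b5, Themis, Cidec and mt-Nd4l; 3403 had an unadjusted p below 0.05. This count changed most of all with the processing. DESeq2 called 1149 genes, limma voom with weights for the quality of each library 10733, and edgeR without HFD+AE 3 and HFD+RE 3 called 4434, while the 4 genes were in each of these sets. Both left-out libraries lay apart from their groups on the first principal component of these same data. Their removal narrows the spread within groups, so the count of 4434 is no independent result. Without HFD+RE 3 alone 840 passed, without HFD 2 alone 166, and without HFD 1 alone none. The number of genes whose diet response differs with exercise is thus not settled by these libraries, and "called in each group" does not say that the size of the change was equal.

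Hsd3b5, a male-specific hydroxysteroid dehydrogenase of the liver, had 0.272, 0.422 and 0.343 CPM in HFD, 77.0, 26.6 and 17.4 in HFD+AE and 124, 25.2 and 112 in HFD+RE, against 211, 191 and 89.2 in NC. HFD libraries were below all others by a wide margin; HFD+AE libraries were below NC, and HFD+RE overlapped with NC. The log2 change against NC was -8.88 in HFD, -2.02 in HFD+AE (adjusted p = 0.123) and -0.91 in HFD+RE (adjusted p = 0.333), and the difference from HFD was 6.86 (95% interval 5.19 to 8.53) in HFD+AE and 7.97 (95% interval 6.24 to 9.71) in HFD+RE (adjusted p among the 3 groups = 0.00667). Its combined log2 change of -3.94 therefore does not describe a diet response common to the groups. Hsd3b genes are close copies and share reads.

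Themis, which encodes a signalling protein of developing T cells, had 24.2, 27.6 and 21.2 CPM in HFD, 9.25, 6.52 and 5.19 in HFD+AE and 6.15, 5.25 and 3.84 in HFD+RE, against 0.781, 0.631 and 0.973 in NC. It was above NC in all 9 high-fat libraries, and the HFD libraries were above those of both trained groups. The difference from HFD was -1.80 (95% interval -2.35 to -1.25) in HFD+AE and -2.26 (95% interval -2.82 to -1.70) in HFD+RE (adjusted p = 0.00667). Themis is thus both a gene called in each group and one whose size of change differed. Of the T and NK cell markers 7 of 15 rose in HFD and none in HFD+AE or HFD+RE. Among all genes tested, 8.38% rose in HFD, and only 0.901% in HFD+AE and 2.67% in HFD+RE. The part of T and NK cells in the Themis result was not tested. Cidec, which enlarges lipid droplets, had 49.0, 26.8 and 27.4 CPM in HFD, 6.79, 6.70 and 8.71 in HFD+AE and 9.95, 8.83 and 11.1 in HFD+RE, against 5.74, 8.27 and 11.1 in NC. It was higher in HFD than in every other library and at the NC level in the trained groups, with a difference from HFD of -2.22 (95% interval -2.83 to -1.61) in HFD+AE and -1.79 (95% interval -2.39 to -1.19) in HFD+RE (adjusted p = 0.0142); its combined change of 0.70 did not pass (adjusted p = 0.0734). The mitochondrial gene mt-Nd4l had 54.3, 27.4 and 53.6 CPM in HFD, 7.68, 8.33 and 10.3 in HFD+AE and 6.22, 9.97 and 16.0 in HFD+RE, against 10.5, 8.61 and 12.4 in NC (adjusted p among the groups = 0.0253); the share of mitochondrial rRNA was also highest in HFD, and its part in this result was not tested.

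**Figure D5:**
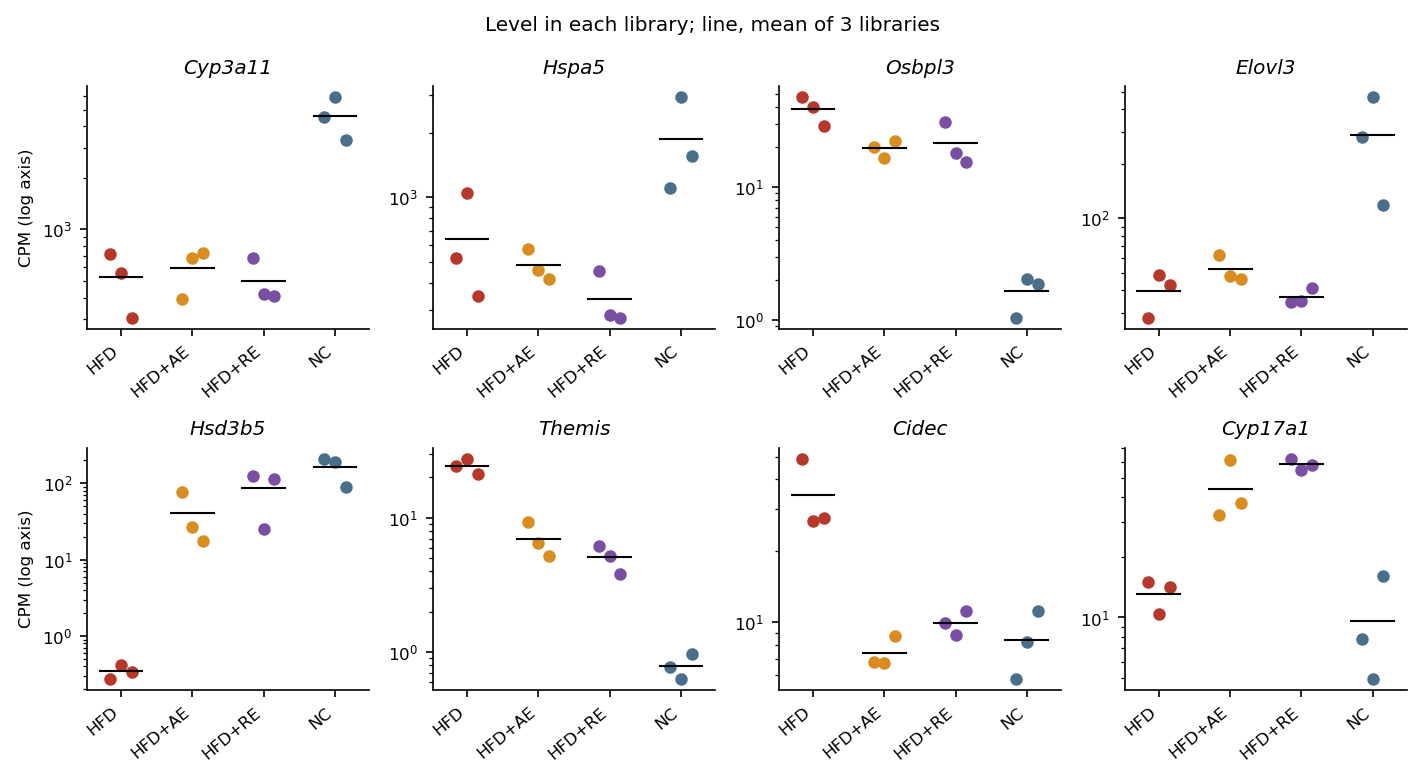
CPM on a log axis in each library for 4 genes called in each high-fat group (Cyp3a11, Hspa5, Osbpl3, Elovl3) and for Hsd3b5, Themis, Cidec and Cyp17a1; points are libraries and lines are means of 3. Genes of the upper row were chosen for no overlap, so their 9 high-fat points lie on 1 side of NC by selection. In the lower row the HFD points stand apart from HFD+AE and HFD+RE.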

How the data were processed

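The authors deposited unnormalized counts of reads for each gene, from featureCounts per the file headers; the submitters' processing notes name fastp, HISAT2 2.2.1, featureCounts 2.0.6, DESeq2 1.40.1 and mm10. The sources used here give neither the strand setting nor how multi-mapping reads were handled, so overlapping genes and close copies are uncertain. Besides Csad, Srebf1 and Dbp, genes named here with exons that overlap another gene include Nr1i3, Hand2, Tbc1d8 and Cntnap1. The gene mt-Nd4l overlaps mt-Nd4, which had far more counts, on the same strand. Everything after the counts was computed here. In R 4.3.3, edgeR 4.0.16 (TMM scaling, filter on low counts by group, robust quasi-likelihood F-test) was fitted to all 12 libraries with 1 mean per group. The contrasts were the mean of the 3 high-fat groups minus NC, each high-fat group minus NC, and an F-test among the high-fat groups. P-values were adjusted by Benjamini-Hochberg over the 18305 genes tested, with a threshold of 0.05, and every adjusted p is from edgeR unless another tool is named. Levels are CPM on TMM-scaled library sizes, given as mean ± SD (n = 3 libraries); log2 changes come from the fit, with ± SE. Precision rests on 3 libraries a group and on 44373214 to 77665729 counts a library. No pair of libraries agreed within sampling noise. The fit was tested on simulated counts with known changes.

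The compared groups, the tests and the 38 gene lists, 12 of them markers of cell types, were chosen with earlier results of these data known. Lists are described by counts and medians, without a test, and some of their members are not reported here. Genes were named by a rule with 4 parts. The first took up to 12 genes per direction with the largest combined change among those called in each high-fat group, with no overlap with NC, a mean log2 CPM above 1 and a proper gene symbol (no predicted, Riken or clone names). The second took, from each list, the called members with the smallest p, at most 3. The third took up to 6 genes by smallest p that differed among the high-fat groups and were called in the combined contrast, and the fourth was a fixed set. Other genes in the text, including further list members, were chosen after their values were seen. Promoter windows are from RefSeq (GRCm38.p6), matched by symbol. Alternatives were RLE size factors, DESeq2 1.42.0, limma 3.58.1 voom with library weights, no filter, a test against a 1.5-fold change, 2 groups only, the replicate number as a block, offsets for trends on gene length and GC content, and leaving out single libraries, HFD+AE 3 with HFD+RE 3, or a high-fat group. Recounts over single lists and of genes without overlap were added after seeing the data.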

Additional observations from a re-analysis of the deposited data

Results flagged for a closer look

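A difference among the high-fat groups passed edgeR's F-test for 4 genes, with an adjusted p of 0.00667 for Themis, 0.00667 for Hsd3b5, 0.0142 for Cidec and 0.0253 for mt-Nd4l. In all 4 the HFD mean stood apart from the means of HFD+AE and HFD+RE.

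In 5 of 159 named genes a single library stood apart from the rest of the 9 high-fat libraries, by its gap to the nearest of them over the whole range of log2(CPM + 0.5). Chance alone sets a library apart in about 1 in 20 groups. Cyp3a44 was highest in HFD+AE 3, at 0.659 CPM against a high-fat median of 0.227, and was still below every NC library. Cd36 was lowest in HFD+RE 5, at 27.0 CPM against a median of 108. Dio1 was lowest in HFD+RE 3, at 74.8 CPM against a median of 167, and was there still above every NC library. Asns was highest in HFD+RE 3, at 3.14 CPM against a median of 0.253; this library lay inside the NC range of 0.973 to 5.07 CPM. Fabp5 was highest in HFD+RE 5, at 28.6 CPM against a median of 3.65; this library lay inside the NC range of 10.4 to 37.5 CPM.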

How the results depend on the processing

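Of 159 genes named in the text 147 were called, and under the 25 alternatives none of these changed direction. Of the 147, 37 were called in every alternative, and 65 in every one but the replicate block and the test against a 1.5-fold change. Most were named because they were called or after their values were seen, and the alternatives refit largely the same libraries. Kept directions of these genes therefore test little. The 1690 genes called in the combined contrast became 2996 with DESeq2, 6889 with limma voom, 228 against a 1.5-fold change, 960 with 2 groups only, 4927 without HFD+AE 3 and HFD+RE 3, 412 without the HFD group and 2984 without the HFD+AE group. Leaving out 1 library gave 352 (NC 4) to 4088 (HFD+RE 3), with 916 for HFD 1, 1006 for HFD 3, 1076 for HFD+RE 4, 685 for NC 2 and 998 for NC 5.

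The 154 genes called in each group became 468 with DESeq2, 967 with voom, 247 with no filter, 22 against a 1.5-fold change, 289 with length and GC trends removed, 69 without the HFD group, 541 without the HFD+AE group and 239 without the HFD+RE group; without a group, only the remaining groups had to pass. Leaving out 1 library gave 36 (NC 4) to 259 (HFD+RE 3), with 70 for HFD 1, 78 for HFD 3, 90 for HFD+AE 1, 40 for HFD+AE 2, 80 for HFD+AE 3, 59 for HFD+RE 4, 87 for HFD+RE 5 and 70 for NC 2.

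The 4 genes that differed among the high-fat groups became 1149 with DESeq2, 10733 with voom, 485 with no filter, 10 with length trends removed, 13 with length and GC trends removed, 4434 without HFD+AE 3 and HFD+RE 3, and 1427 without the HFD+RE group. In edgeR 0 passed without the HFD group (1143 at an unadjusted p below 0.05). Leaving out 1 library gave 0 (HFD 1; 1877 at an unadjusted p below 0.05) to 840 (HFD+RE 3), with 166 for HFD 2, 2 for HFD+AE 1, 2 for HFD+AE 2, 13 for HFD+AE 3, 8 for HFD+RE 4 and 7 for NC 5. Genes without overlap numbered 1756, and 3400 without the HFD+AE group; leaving out 1 library gave 1815 (HFD+RE 4) to 3339 (NC 5), and 2663 without NC 2.

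Residuals of libraries with the same replicate number correlated between -0.497 and 0.161. Libraries with different numbers were not compared in this way, so whether the numbers mark a pairing is not settled. With the replicate block edgeR called 167 genes in the combined contrast, 1 in each group and 0 among the high-fat groups (2608 at an unadjusted p below 0.05). Signs turned only in genes not called in the combined contrast: the log2 change of Plin2 was 0.0071 with voom, 0.086 with the replicate block and 0.15 without NC 5 (-0.23 to 0.15 over single libraries left out), that of Igf1 was -0.037 without NC 2 and -0.051 without NC 4 (-0.051 to 0.41 over single libraries left out), and that of mt-Nd4l was -0.12 without the HFD group. The cause of these shifts was not tested. With 3 libraries a group and the same NC libraries in every comparison, counts of called genes moved widely. The direction of the named genes moved less, but most of them were picked as called in these same libraries.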

Other observations

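Further lists gave few calls, where 4.9% of all genes tested rose and 4.33% fell. Of 17 targets of the antioxidant regulator NRF2, 2 rose. Nqo1, a quinone reductase, averaged 11.2 CPM in HFD, 8.73 in HFD+AE and 6.12 in HFD+RE, against 4.003 in NC (log2 change 1.07, adjusted p = 0.0112). Srxn1, sulfiredoxin, averaged 55.8 CPM in HFD, 41.2 in HFD+AE and 48.0 in HFD+RE, against 30.6 in NC (log2 change 0.65, adjusted p = 0.0344). In both, the 9 high-fat libraries were above NC. Of 19 cytokines, chemokines and adhesion molecules 2 rose, Il1rn and Tnfaip3, an inhibitor of NF-kappaB signalling, which averaged 5.72 CPM in HFD, 3.93 in HFD+AE and 4.38 in HFD+RE, against 2.94 in NC. Psmb9 was the only called member of 12 antigen presentation genes. Of 15 cell cycle genes 1 fell, Cdkn1a, which encodes the inhibitor p21 and averaged 6.86 CPM in HFD, 3.83 in HFD+AE and 1.90 in HFD+RE, against 7.61 in NC; it was not called in HFD alone (adjusted p = 0.766). Of 11 pericentral genes Lect2 rose and Cyp1a2 fell, and of 10 periportal genes Cdh1, E-cadherin, fell, with 10.4, 5.40 and 3.16 CPM in HFD, 8.99, 9.57 and 9.80 in HFD+AE and 32.4, 5.63 and 18.6 in HFD+RE, against 44.8, 51.5 and 13.4 in NC. NC 5 lay inside the high-fat range for Cdh1. The 1 tested pancreatic acinar marker was not called. Without NC 4 only Psmb9 of these calls remained.

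Several genes called in each high-fat group lie near each other, by the distance from the end of 1 gene to the start of the other. Elovl3 and Pitx3, a homeobox gene, overlap at their ends on opposite strands of chromosome 19 and both fell; Pitx3 averaged 0.617 CPM in HFD, 0.664 in HFD+AE and 0.285 in HFD+RE, against 5.01 in NC. Npas2 and Tbc1d8 lie 8256 bases apart on chromosome 1 and both fell; Tbc1d8, of a family of Rab GTPase-activating proteins, averaged 19.7 CPM in HFD, 18.8 in HFD+AE and 16.2 in HFD+RE, against 42.1 in NC. Exons of Tbc1d8 overlap those of Rpl31 on the other strand, which had more counts. On chromosome 4, Extl1, of the family of heparan sulfate glycosyltransferases, averaged 18.5 CPM in HFD, 18.8 in HFD+AE and 22.0 in HFD+RE, against 5.26 in NC, and Paqr7, a membrane progesterone receptor, averaged 105 CPM in HFD, 80.8 in HFD+AE and 94.3 in HFD+RE, against 29.9 in NC. Both rose and lie 112847 bases apart. On chromosome 11 neighbours moved in opposite directions. Cntnap1, a neuronal adhesion protein, rose and averaged 7.29 CPM in HFD, 4.12 in HFD+AE and 5.33 in HFD+RE, against 1.49 in NC, while Wnk4, a kinase that controls ion transport, fell and averaged 2.02 CPM in HFD, 1.99 in HFD+AE and 2.52 in HFD+RE, against 6.09 in NC. Exons of Cntnap1 overlap those of Plekhh3 on the other strand. Whether such neighbours are more frequent than among other genes was not tested.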
